A study of Solanum lycopersicum with 29 samples.

Results

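The genes followed here carry light capture and carbon fixation: the chlorophyll a/b-binding proteins of both photosystems, the small subunits of Rubisco (RBCS) and the photosystem proteins PsbO, PsbP, PsbS and PsaD. A set of 38 identifiers was chosen by what the genes encode, with no expression value in the rule. The choice was made with earlier results of these data known, so counts set beside the share of all genes are a description. Of these, 25 were found in the gene tables of 35092 genes, and the other 13 were not analysed here. All 13 came from the chlorophyll a/b-binding part of the set, among them the listed identifiers from Solyc02g070940 to Solyc02g071030. The antenna genes followed here are therefore not the full list. Solyc01g105030 had 0 reads in all 29 libraries, which allows at most 0.00298 CPM (counts scaled to the reads of a library) over the libraries together. That left 24 genes, 17 of them antenna proteins and 7 with other roles, and all 24 passed the filter on low counts. Gene names are those of the study's supplementary annotation, and members without a name there are given by identifier.

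RNA was sequenced from anthers of tomato cv. Micro-Tom with polarized microspores. The 4 lines were 35S::nahG, a salicylic acid-deficient line in which the constitutive 35S promoter drives a bacterial gene for salicylic acid breakdown, 35S::asCCD7, an antisense line for a strigolactone biosynthesis gene, the ethylene-insensitive mutant Never ripe, and wild type (WT). Plants of every line were held for 8 days in long-term mild heat (LTMH; days of 34°C, nights of 28°C, 68% relative humidity) or stayed at control temperature (CT; days of 25°C, nights of 19°C, 50% humidity). There were 3 LTMH and 4 CT libraries for each of 35S::nahG, Never ripe and WT, and 4 of each for 35S::asCCD7, every library coming from a pool of 6 anthers taken about the same time into the light period. The study's methods state 4 replicates per condition and genotype. In LTMH the libraries are numbered 2, 3 and 4 in 35S::nahG and WT and 1, 3 and 4 in Never ripe. The reason for the missing number was not given. Each transgene was present as 1 line, so what else may differ in those plants cannot be told apart from the transgene.

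Antenna proteins hold chlorophyll a and b and pass absorbed light energy to the reaction centres of photosystem II and photosystem I. PsbO and PsbP sit at the oxygen-evolving complex, where photosystem II splits water, and PsbS is needed to release excess light energy as heat. PsaD is a photosystem I subunit on the side where ferredoxin is reduced, and the small subunit joins the plastid-encoded large subunit in Rubisco, which fixes CO2. All of these proteins are made in the cytosol from nuclear genes and imported into plastids. Young anthers are green and hold chloroplasts.

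The libraries held 32273189 to 42353956 counted reads, and the 10 most abundant genes took 5.68% to 12.1% of them. The median correlation of a library with the others of its group was between 0.977 and 0.996. The tapetum, the cell layer that feeds the microspores, was followed by 5 marker genes, TDF1, AMS, CYP703A2, CYP704B1 and WBC27. Their summed level was 62.7 to 118 FPKM (fragment counts scaled to gene length and library size) in 35S::nahG in LTMH and 2545 to 3544 FPKM in CT, 39.2 to 175 FPKM in 35S::asCCD7 in LTMH and 31.0 to 400.0 FPKM in CT, 25.0 to 202 FPKM in Never ripe in LTMH and 205 to 1291 FPKM in CT, and 70.8 to 192 FPKM in WT in LTMH and 297 to 1512 FPKM in CT. TDF1 was listed at 0 in 3 libraries, 1 of Never ripe and 2 of 35S::nahG, all in LTMH. The sums of LTMH lay below those of CT without overlap in 35S::nahG, Never ripe and WT and overlapped with them in 35S::asCCD7. In LTMH the ranges of the sum overlapped in all 4 lines, and AMS gave most of the sum in every LTMH library. WBC27 in LTMH had 0.0865 to 0.112 FPKM in 35S::nahG, 0.104 to 0.127 FPKM in Never ripe and 0.236 to 9.58 FPKM in WT. TDF1 in LTMH had 0 to 0.0309 FPKM in 35S::nahG, 0 to 0.0159 FPKM in Never ripe and 0.0791 to 0.474 FPKM in WT. TDF1 and WBC27 in LTMH lay below WT without overlap in 35S::nahG and Never ripe and overlapped with WT in 35S::asCCD7. TDF1 was near the floor in WT too, and WBC27 in 35S::nahG and Never ripe, so these separations rest on few reads. AMS, CYP703A2 and CYP704B1 in LTMH overlapped with WT in each of these lines. The part of these transcripts in the results on photosynthesis genes was not tested.

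The 24 genes together took between 0.514% and 1.68% of all counted reads of a library. The share was 1.08%, 1.05% and 0.982% in 35S::nahG in LTMH and 1.54%, 1.48%, 1.56% and 1.55% in CT. It was 1.68%, 0.980%, 0.830% and 1.01% in 35S::asCCD7 in LTMH and 1.38%, 1.41%, 1.39% and 1.26% in CT. In Never ripe it was 0.932%, 1.01% and 0.940% in LTMH and 0.854%, 0.838%, 0.762% and 0.718% in CT, and in WT 0.613%, 0.606% and 0.514% in LTMH and 1.14%, 1.13%, 1.16% and 1.11% in CT. The 3 WT libraries in LTMH had the lowest shares of all 29 libraries, and Never ripe was the only line in which all LTMH libraries lay above all CT libraries. The share is not scaled for the make-up of a library. By the summed deposited FPKM, Never ripe had 8421 to 9577 FPKM in LTMH and 7745 to 8968 FPKM in CT, which overlap. WT in LTMH was lowest by this sum too, at 4914 to 6008 FPKM. Replicate 1 of 35S::asCCD7 in LTMH lay above the other 3 libraries of its group and had the highest share of the series. In whole anthers, fewer green cells and less RNA per green cell cannot be told apart.

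**Figure D1:**
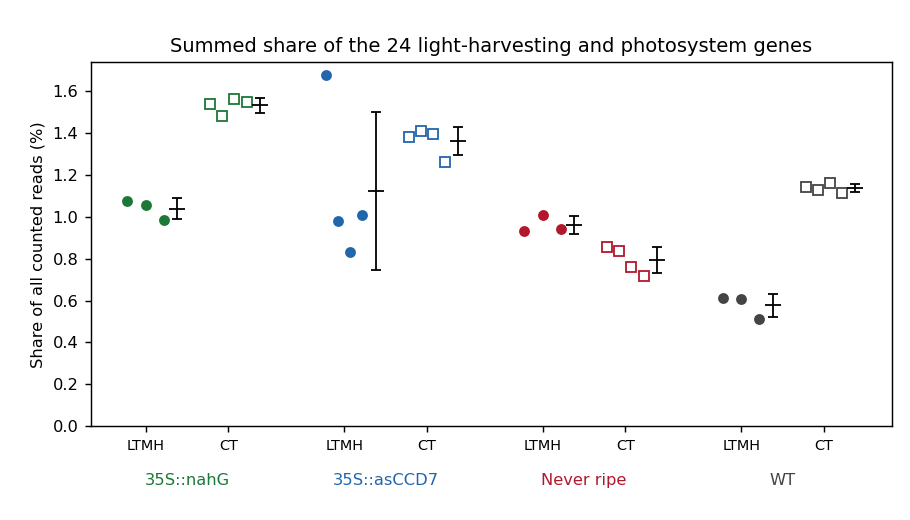
Share of all counted reads (%) that mapped to the 24 genes, 1 point per library, in LTMH (filled circles) and CT (open squares) of each line. Bars give the group mean ± SD; WT in LTMH is lowest at 0.514% to 0.613%, and 1 library of 35S::asCCD7 in LTMH reaches 1.68%.

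Levels between genes were compared as deposited FPKM, which are set per gene length and had been scaled by the authors between libraries. The members spanned mean levels over the 29 libraries of 11.6 FPKM for RBCS-3B to 1841 FPKM for Solyc03g005760, a chlorophyll a-b binding protein. After Solyc03g005760 came RBCS-2A (1680.0 FPKM), RBCS-1 (964 FPKM) and the chlorophyll a-b binding proteins Solyc09g014520 (771 FPKM) and Solyc07g047850 (662 FPKM). The ranges of neighbouring members in this order overlapped, so their order is not resolved library by library. In 24 of the 24 members WT in LTMH had the lowest of the 8 group means, which held for 16.1% of all 21637 genes tested. The 3 WT libraries in LTMH lay below all other 26 libraries in 22 of the 24, against 2.42% of all genes, and the exceptions were RBCS-2A and PSBS. The highest group mean was that of 35S::nahG in CT in 21 members, against 24.3% of all genes, and that of 35S::asCCD7 in CT in the other 3.

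Among the Rubisco small subunits, RBCS-2A and RBCS-1 were abundant and RBCS-3B was the lowest of all members. RBCS-2A (Solyc03g034220) had 1472, 1513 and 1521 FPKM in 35S::nahG in LTMH and 2089, 1995, 2025 and 1929 FPKM in CT, and 2701, 1621, 1248 and 1612 FPKM in 35S::asCCD7 in LTMH and 1971, 1863, 1861 and 1648 FPKM in CT. In Never ripe it had 1567, 1610.5 and 1378 FPKM in LTMH and 1624, 1512, 1384 and 1408 FPKM in CT, and in WT 1276, 1198 and 1049 FPKM in LTMH and 1865, 1886, 1983 and 1909.9 FPKM in CT. The temperatures did not overlap in 35S::nahG and WT, where LTMH was the lower, and they overlapped in the other lines. RBCS-1 (Solyc02g063150) had 949, 941 and 957 FPKM in 35S::nahG in LTMH and 1202, 1070.0, 1212 and 1186 FPKM in CT, and 1498, 871, 809 and 983 FPKM in 35S::asCCD7 in LTMH and 1363, 1183, 1169 and 1063 FPKM in CT. It had 852, 931 and 841 FPKM in Never ripe in LTMH and 755, 719.5, 717 and 715 FPKM in CT, and 674, 596 and 519 FPKM in WT in LTMH and 1027, 1080.0, 1046 and 1033 FPKM in CT. Here every Never ripe library in LTMH was above every one in CT, the opposite of WT. RBCS-3B (Solyc02g085950) had 12.7, 11.4 and 11.3 FPKM in 35S::nahG in LTMH and 22.7, 24.4, 18.9 and 17.3 FPKM in CT, and 20.2, 10.8, 8.12 and 12.05 FPKM in 35S::asCCD7 in LTMH and 11.3, 15.99, 12.1 and 9.29 FPKM in CT. It had 8.82, 9.48 and 7.12 FPKM in Never ripe in LTMH and 9.88, 7.44, 6.84 and 6.97 FPKM in CT, and 4.97, 5.58 and 3.86 FPKM in WT in LTMH and 14.2, 9.01, 12.2 and 10.9 FPKM in CT. Its libraries were more spread than those of the abundant pair.

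At the oxygen-evolving complex, PSBO (Solyc02g065400) had 282, 286 and 286 FPKM in 35S::nahG in LTMH and 383, 369, 394 and 398 FPKM in CT, and 428, 254, 239.6 and 284 FPKM in 35S::asCCD7 in LTMH and 368, 357, 351 and 319 FPKM in CT. It had 229.5, 272 and 261 FPKM in Never ripe in LTMH and 267, 255, 233 and 243 FPKM in CT, and 189.7, 175 and 149 FPKM in WT in LTMH and 335, 332, 324 and 305 FPKM in CT. The 35S::nahG libraries in LTMH lay close to each other and above all WT libraries in LTMH. PsbP (Solyc07g044860, described as the photosystem II 23 kDa protein) had 524, 525 and 517 FPKM in 35S::nahG in LTMH and 598, 571, 591 and 589 FPKM in CT, and 797, 492, 467 and 579 FPKM in 35S::asCCD7 in LTMH and 597, 603, 591 and 593 FPKM in CT. It had 453, 488 and 483 FPKM in Never ripe in LTMH and 478, 486, 446 and 461 FPKM in CT, and 392, 378 and 335 FPKM in WT in LTMH and 555, 552, 555 and 522 FPKM in CT. PsbP varied least between the groups of all members. PSBS (Solyc06g060340) had 153, 157 and 149 FPKM in 35S::nahG in LTMH and 296, 283, 280.3 and 327 FPKM in CT, and 221, 139, 98.6 and 131 FPKM in 35S::asCCD7 in LTMH and 295, 275, 282 and 213 FPKM in CT. It had 149, 164 and 129.6 FPKM in Never ripe in LTMH and 188, 173, 155 and 150.0 FPKM in CT, and 100.4, 85.2 and 79.4 FPKM in WT in LTMH and 259, 232, 266 and 242 FPKM in CT. The lowest 35S::asCCD7 library in LTMH reached into the WT range in LTMH for this gene. The photosystem I subunit gene psaD (Solyc06g054260) had 574, 586 and 553 FPKM in 35S::nahG in LTMH and 705, 723, 797 and 699 FPKM in CT, and 885, 566, 488 and 599 FPKM in 35S::asCCD7 in LTMH and 680.4, 685, 700.3 and 656 FPKM in CT. It had 514, 606 and 541 FPKM in Never ripe in LTMH and 525, 510.2, 495 and 494 FPKM in CT, and 403, 367 and 332 FPKM in WT in LTMH and 526, 545, 627 and 575 FPKM in CT. In LTMH the 3 WT libraries were again below every library of the other lines.

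The 17 antenna genes ran over a wider range of levels. The most abundant, Solyc03g005760, had 1846, 1956 and 1749 FPKM in 35S::nahG in LTMH and 2693, 2523, 2997 and 3020.1 FPKM in CT, and 2585, 1407, 1085 and 1578 FPKM in 35S::asCCD7 in LTMH and 2431, 2463, 2313 and 1898 FPKM in CT. It had 1675, 1744 and 1463 FPKM in Never ripe in LTMH and 1540.3, 1429, 1282 and 1309.7 FPKM in CT, and 912, 937 and 751 FPKM in WT in LTMH and 1985, 1887, 2128 and 1791 FPKM in CT. LTMH and CT did not overlap in 35S::nahG and WT. Solyc09g014520 had 759, 790.0 and 746 FPKM in 35S::nahG in LTMH and 896, 917, 939.9 and 939 FPKM in CT, and 1172, 707, 649 and 724 FPKM in 35S::asCCD7 in LTMH and 967, 979, 969 and 921 FPKM in CT. It had 667, 744 and 727 FPKM in Never ripe in LTMH and 658, 656, 593 and 584 FPKM in CT, and 543, 521 and 454 FPKM in WT in LTMH and 793, 797, 778 and 763 FPKM in CT. Replicate 1 of 35S::asCCD7 in LTMH was far above the other 3 of its group. Solyc07g047850 had 518, 526 and 482 FPKM in 35S::nahG in LTMH and 1140.5, 1063, 1166 and 1218 FPKM in CT, and 815, 439, 296 and 493 FPKM in 35S::asCCD7 in LTMH and 1015, 959.8, 1006 and 736 FPKM in CT. It had 557, 572 and 430.1 FPKM in Never ripe in LTMH and 543, 501, 440.4 and 432 FPKM in CT, and 252, 242 and 193 FPKM in WT in LTMH and 795, 757, 859 and 757 FPKM in CT. For this gene Never ripe in CT lay below WT in CT without overlap. Cab-5 (Solyc12g006140), a low antenna gene, had 11.5, 9.18 and 8.08 FPKM in 35S::nahG in LTMH and 67.5, 64.9, 70.5 and 76.6 FPKM in CT, and 14.9, 9.44, 4.57 and 6.88 FPKM in 35S::asCCD7 in LTMH and 51.8, 46.7, 57.7 and 32.9 FPKM in CT. It had 8.25, 10.999 and 7.22 FPKM in Never ripe in LTMH and 13.7, 9.26, 7.81 and 5.80 FPKM in CT, and 1.75, 1.68 and 0.835 FPKM in WT in LTMH and 22.1, 19.2, 21.8 and 19.5 FPKM in CT. It had the widest span of all members between its groups, and its CT groups did not overlap, in the order 35S::nahG, 35S::asCCD7, WT and Never ripe from high to low.

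**Figure D2:**
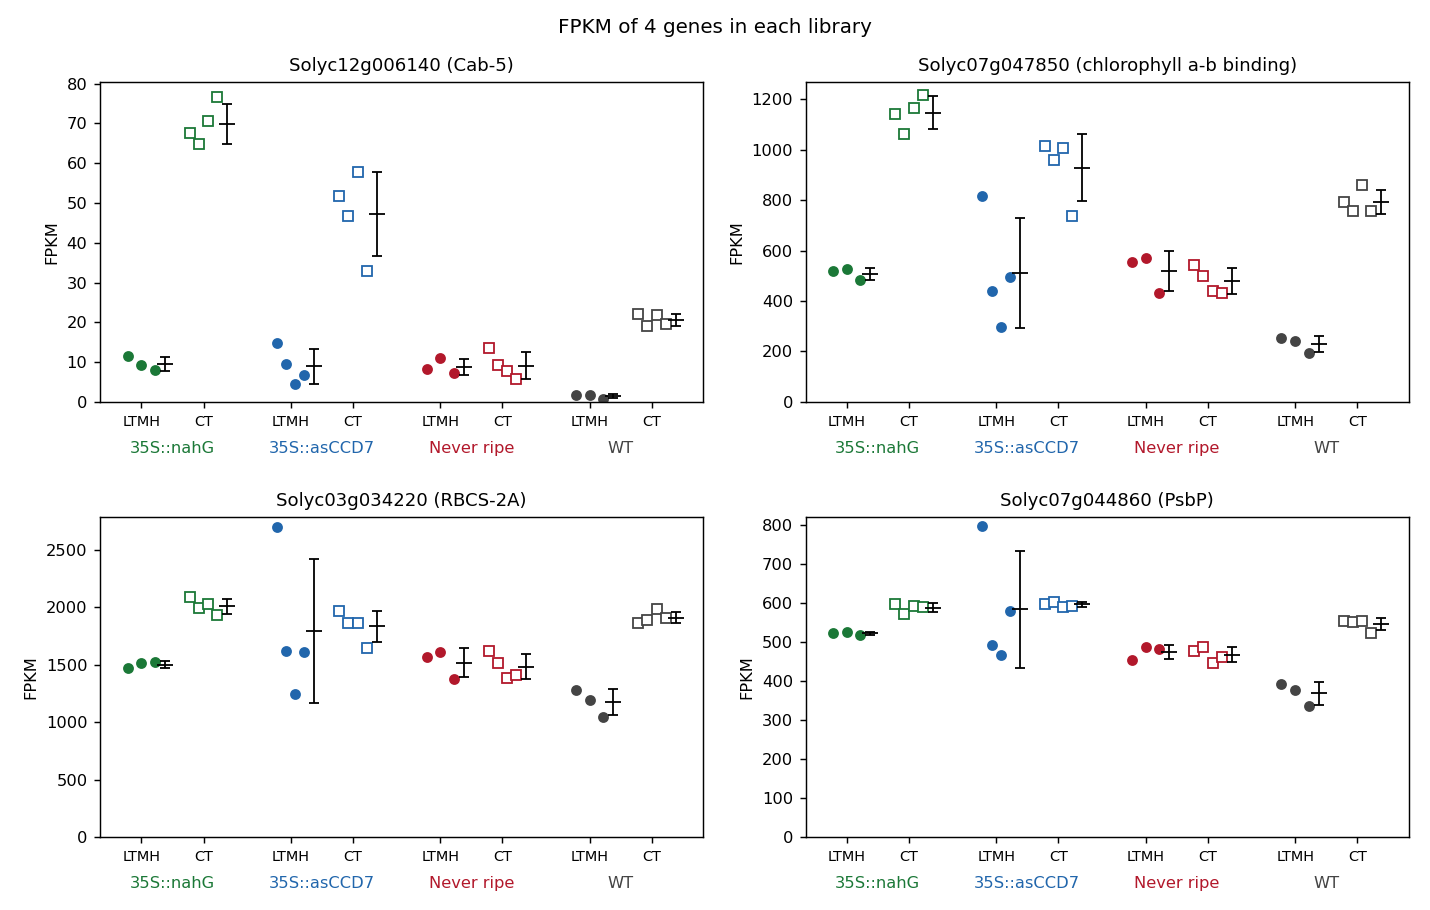
FPKM of Cab-5, the chlorophyll a-b binding protein Solyc07g047850, RBCS-2A and PsbP in each library, in LTMH (filled circles) and CT (open squares) of each line. Bars give the group mean ± SD; in Cab-5 WT lies at 0.835 to 1.75 FPKM in LTMH and at 19.2 to 22.1 FPKM in CT, while PsbP moves least.

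The other antenna genes filled the range between these. Solyc06g069730 behaved like Cab-5, with 18.3, 14.5 and 11.9 FPKM in 35S::nahG in LTMH and 96.5, 84.9, 101 and 90.97 FPKM in CT, and 27.1, 17.2, 7.04 and 9.44 FPKM in 35S::asCCD7 in LTMH and 50.2, 39.3, 53.3 and 30.5 FPKM in CT. It had 16.4, 20.1 and 14.7 FPKM in Never ripe in LTMH and 17.5, 12.4, 12.2 and 8.76 FPKM in CT, and 3.39, 3.91 and 2.50 FPKM in WT in LTMH and 27.2, 22.1, 29.3 and 24.6 FPKM in CT. Again no library of another line in LTMH was as low as WT. Solyc07g063600 had 172, 172 and 161 FPKM in 35S::nahG in LTMH and 535, 467, 552 and 548 FPKM in CT, and 257, 136, 89.2 and 139.5 FPKM in 35S::asCCD7 in LTMH and 411, 367, 396 and 277 FPKM in CT. It had 162, 177 and 137 FPKM in Never ripe in LTMH and 217, 194, 161 and 163 FPKM in CT, and 59.2, 57.5 and 42.6 FPKM in WT in LTMH and 305, 265, 321 and 275 FPKM in CT. LTMH was below CT without overlap in 35S::nahG, 35S::asCCD7 and WT. CAB13 (Solyc12g011450) had 169.5, 167 and 139 FPKM in 35S::nahG in LTMH and 333, 323, 368 and 399.6 FPKM in CT, and 258, 127, 89.1 and 141 FPKM in 35S::asCCD7 in LTMH and 315, 302, 319.8 and 269 FPKM in CT. It had 138, 163 and 142 FPKM in Never ripe in LTMH and 150.0, 139, 116 and 110.1 FPKM in CT, and 60.8, 55.4 and 45.6 FPKM in WT in LTMH and 211, 212, 228 and 198 FPKM in CT. The WT libraries in LTMH were again the lowest of the series. CAP10B (Solyc01g105050), which encodes CP24 of the photosystem II antenna, had 86.2, 87.6 and 82.6 FPKM in 35S::nahG in LTMH and 116, 103, 122 and 123 FPKM in CT, and 141, 75.6, 68.8 and 85.1 FPKM in 35S::asCCD7 in LTMH and 114, 109, 110.2 and 95.9 FPKM in CT. It had 73.4, 82.9 and 77.4 FPKM in Never ripe in LTMH and 76.3, 74.6, 69.3 and 66.2 FPKM in CT, and 51.5, 51.8 and 45.4 FPKM in WT in LTMH and 90.5, 87.4, 102 and 92.5 FPKM in CT. Its LTMH and CT levels overlapped in Never ripe and 35S::asCCD7.

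A pair of neighbouring identifiers, Solyc03g005760 and Solyc03g005770, encodes antenna proteins that were counted separately. Solyc03g005770 had 245, 236 and 209 FPKM in 35S::nahG in LTMH and 771, 693, 842 and 709 FPKM in CT, and 375, 198, 175 and 215 FPKM in 35S::asCCD7 in LTMH and 564, 518, 587 and 416 FPKM in CT. It had 189, 227 and 201 FPKM in Never ripe in LTMH and 308, 267, 234 and 241 FPKM in CT, and 88.4, 100.1 and 75.5 FPKM in WT in LTMH and 407, 381, 415 and 367 FPKM in CT. Its LTMH libraries were below its CT libraries without overlap in all 4 lines, which Solyc03g005760 did not show. Solyc05g056070 had 438, 458 and 422 FPKM in 35S::nahG in LTMH and 575, 552, 619 and 617 FPKM in CT, and 805, 458, 378 and 396 FPKM in 35S::asCCD7 in LTMH and 586, 537, 578 and 499 FPKM in CT. It had 404, 464 and 418 FPKM in Never ripe in LTMH and 379, 363, 329.8 and 318 FPKM in CT, and 246, 243 and 209.9 FPKM in WT in LTMH and 418, 417, 446 and 426 FPKM in CT. Never ripe in LTMH lay above Never ripe in CT in every library. Its neighbour by identifier, Solyc05g056050, had 66.5, 65.6 and 65.5 FPKM in 35S::nahG in LTMH and 131, 124, 129 and 126 FPKM in CT, and 119, 63.3, 51.1 and 57.5 FPKM in 35S::asCCD7 in LTMH and 118, 120.1, 119 and 110.1 FPKM in CT. It had 65.2, 71.04 and 62.4 FPKM in Never ripe in LTMH and 88.9, 86.9, 80.7 and 76.4 FPKM in CT, and 37.96, 32.9 and 28.1 FPKM in WT in LTMH and 92.1, 92.5, 101 and 97.97 FPKM in CT. In Never ripe this gene went the other way from Solyc05g056070, with LTMH below CT in every library. Reads that fit more than 1 place were not counted by the counter's default, so how reads divide between close copies such as these pairs is uncertain.

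Of the remaining antenna genes, Solyc08g067320 had 91.99, 96.8 and 79.8 FPKM in 35S::nahG in LTMH and 195, 201, 231 and 205 FPKM in CT, and 265, 142, 70.95 and 125 FPKM in 35S::asCCD7 in LTMH and 155, 145, 171 and 126 FPKM in CT. It had 111, 119.7 and 84.1 FPKM in Never ripe in LTMH and 89.1, 82.2, 77.9 and 81.03 FPKM in CT, and 41.1, 43.3 and 32.7 FPKM in WT in LTMH and 124, 113, 122 and 106 FPKM in CT. The 35S::asCCD7 libraries in LTMH spanned the whole CT range of that line here. Solyc12g011280 had 73.3, 73.5 and 66.5 FPKM in 35S::nahG in LTMH and 163, 152, 161 and 165 FPKM in CT, and 149.5, 70.03, 49.6 and 63.4 FPKM in 35S::asCCD7 in LTMH and 141, 123, 136 and 102 FPKM in CT. It had 67.8, 87.3 and 75.7 FPKM in Never ripe in LTMH and 86.2, 71.5, 66.5 and 68.2 FPKM in CT, and 38.7, 34.002 and 29.6 FPKM in WT in LTMH and 108, 105, 115 and 94.5 FPKM in CT. WT in LTMH was lowest in each of these.

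That left 4 antenna genes. Solyc10g006230 had 474, 485 and 455 FPKM in 35S::nahG in LTMH and 666, 661, 639.7 and 675 FPKM in CT, and 671, 428, 376 and 397 FPKM in 35S::asCCD7 in LTMH and 648, 670.2, 669 and 629 FPKM in CT. In Never ripe the levels were 419.7, 474 and 451 FPKM in LTMH and 505, 525, 453 and 446 FPKM in CT, and in WT 320.1, 304 and 267 FPKM in LTMH and 579.9, 589, 575 and 569 FPKM in CT. In 35S::asCCD7 the highest LTMH library was as high as the CT libraries. Solyc10g007690 had 241, 249 and 237 FPKM in 35S::nahG in LTMH and 318, 327, 300.0 and 335 FPKM in CT, and 392, 241, 205 and 239.9 FPKM in 35S::asCCD7 in LTMH and 312, 319.5, 318 and 273 FPKM in CT. In Never ripe the levels were 243, 277 and 246 FPKM in LTMH and 232, 225, 188 and 184 FPKM in CT, and in WT 166, 167 and 148 FPKM in LTMH and 271, 251, 273 and 237 FPKM in CT. Every Never ripe library in LTMH was above every one in CT. Solyc03g115900 had 243, 245 and 229 FPKM in 35S::nahG in LTMH and 308, 298, 317 and 321 FPKM in CT, and 376, 215, 186 and 227 FPKM in 35S::asCCD7 in LTMH and 300.5, 297, 291 and 258 FPKM in CT. In Never ripe the levels were 216, 244 and 229 FPKM in LTMH and 197, 193, 179 and 171 FPKM in CT, and in WT 133, 125 and 109.8 FPKM in LTMH and 252, 243, 260.5 and 245 FPKM in CT. The same separation of Never ripe was seen here. Solyc07g022900 had 19.000, 18.95 and 19.2 FPKM in 35S::nahG in LTMH and 28.8, 28.03, 31.5 and 28.9 FPKM in CT, and 27.6, 20.8, 16.5 and 19.1 FPKM in 35S::asCCD7 in LTMH and 27.6, 25.1, 26.8 and 23.3 FPKM in CT. In Never ripe the levels were 15.9, 18.9 and 15.8 FPKM in LTMH and 20.3, 19.5, 16.3 and 18.6 FPKM in CT, and in WT 12.7, 11.8 and 10.8 FPKM in LTMH and 23.8, 23.6, 26.6 and 24.5 FPKM in CT. This gene was low in all groups, and its Never ripe libraries overlapped between the temperatures.

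The first comparison was that of LTMH with CT within each line. A gene was called when edgeR's quasi-likelihood test gave a Benjamini-Hochberg adjusted p below 0.05 over all 21637 genes. The change also had to be at least 1.5-fold. Values after ± are standard errors of the log2 fold change, here and in the figures. They were worked out from the log2 fold change and the F statistic of the test. In WT, 23 of the 24 genes were called lower in LTMH, where 8.43% of all genes were. The median log2 fold change of the 24 was -1.12, against -0.0028 over all genes. Cab-5 fell the furthest (log2 fold change -3.86 ± 0.22, adjusted p = 2.16e-05), followed by Solyc06g069730 (-2.98 ± 0.17, adjusted p = 2.16e-05), Solyc07g063600 (-2.46 ± 0.13, adjusted p = 2.01e-05) and Solyc03g005770 (-2.16 ± 0.11, adjusted p = 1.59e-05). Smaller decreases were called for the abundant RBCS-2A (-0.70 ± 0.09, adjusted p = 0.000772) and psaD (-0.63 ± 0.09, adjusted p = 0.00136), and the smallest for Solyc09g014520 (-0.63 ± 0.08, adjusted p = 0.000723). PsbP, with -0.57 ± 0.08, adjusted p = 0.000992, passed the adjusted p and missed the 1.5-fold threshold. The median was -1.54 over the 17 antenna genes and -0.81 over the 7 others.

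In 35S::nahG, 13 of the 24 were called lower in LTMH, where 13.0% of all genes were. All 24 were lower by adjusted p alone, where 25.4% of all genes were. The median log2 fold change was -0.61, against 0.01 over all genes. Cab-5 (-2.86 ± 0.12, adjusted p = 2.18e-07) and Solyc06g069730 (-2.64 ± 0.14, adjusted p = 7.10e-07) again fell the furthest, and the smallest called decrease was that of Solyc03g005760 (-0.60 ± 0.08, adjusted p = 0.000331). PSBS (-0.95 ± 0.07, adjusted p = 5.34e-06) and RBCS-3B (-0.82 ± 0.13, adjusted p = 0.00058) were the only called genes outside the antenna. PSBO (-0.44 ± 0.06, adjusted p = 0.00024), psaD (-0.35 ± 0.07, adjusted p = 0.00192), RBCS-2A (-0.42 ± 0.06, adjusted p = 0.000428) and RBCS-1 (-0.30 ± 0.07, adjusted p = 0.00453) had smaller differences. The median was -0.95 over the antenna genes and -0.42 over the 7 others. The tapetal marker sum also lay far lower in LTMH than in CT in this line, as given above, and its part in the decrease was not tested.

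In 35S::asCCD7, 6 of the 24 were called lower in LTMH, where 2.80% of all genes were, and the median log2 fold change was -0.27, against 0.0000 over all genes. The 6 were Cab-5 (-2.40 ± 0.33, adjusted p = 0.00444), Solyc06g069730 (-1.52 ± 0.38, adjusted p = 0.0348), Solyc07g063600 (-1.23 ± 0.29, adjusted p = 0.0271), Solyc03g005770 (-1.12 ± 0.24, adjusted p = 0.02), CAB13 (-0.98 ± 0.28, adjusted p = 0.049976) and PSBS (-0.86 ± 0.22, adjusted p = 0.0387). The Rubisco small subunit genes RBCS-2A (-0.04 ± 0.22, adjusted p = 0.926) and RBCS-3B (0.07 ± 0.27, adjusted p = 0.892) stayed near 0 with wide errors. Without replicate 1 in LTMH, the library with the high share, 11 genes were called and the median was -0.48. Without replicate 2 or 4 in LTMH, or 1, 2 or 3 in CT, 1 gene was called.

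In Never ripe, 0 of the 24 were called in either direction, where 8.43% of all genes were. DESeq2 likewise called 0, and 8 had an unadjusted p below 0.05. The median log2 fold change was 0.13, against 0.01 over all genes, with 17 values above 0 and 7 below. By adjusted p alone 4 genes passed, against 18.7% of all genes: RBCS-1 (0.27 ± 0.07, adjusted p = 0.0328), Solyc05g056070 (0.31 ± 0.09, adjusted p = 0.0426) and Solyc03g115900 (0.32 ± 0.08, adjusted p = 0.0292) were higher in LTMH and Solyc05g056050 (-0.32 ± 0.07, adjusted p = 0.0238) was lower. Cab-5, the gene that fell the furthest in the other lines, had -0.04 ± 0.28, adjusted p = 0.934. The tapetal marker sum had 25.0 to 202 FPKM in LTMH and 205 to 1291 FPKM in CT in this line, and its part in the values of the photosynthesis genes was not tested.

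**Figure D3:**
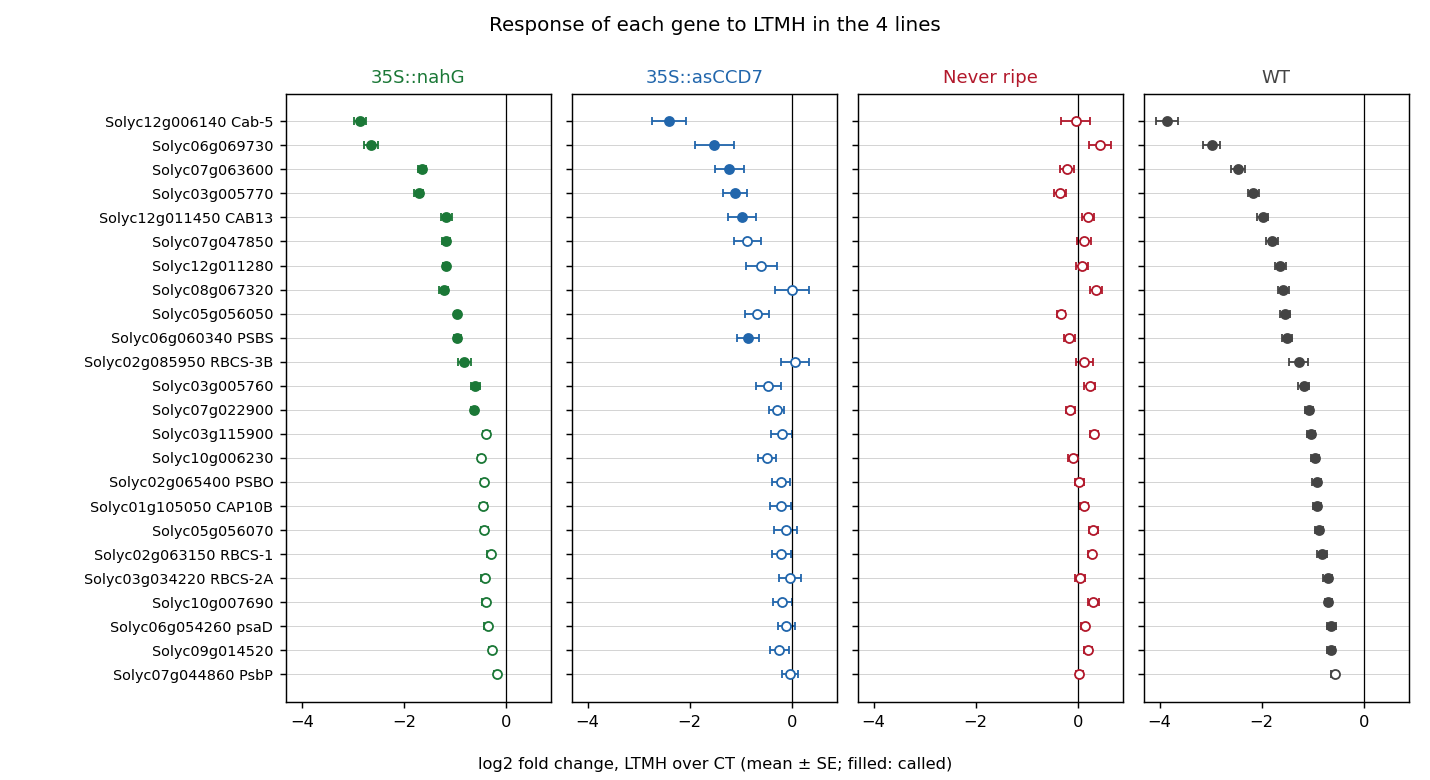
log2 fold change of LTMH over CT for each of the 24 genes in 35S::nahG, 35S::asCCD7, Never ripe and WT, with its standard error; genes run from the largest WT decrease at the top, and filled points were called. The WT values run from -3.86 to -0.57, and those of Never ripe lie between -0.35 and 0.43.

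Over the 24 genes, the order of the LTMH responses in 35S::nahG followed that in WT, with a Spearman rank correlation of 0.96. It was 0.75 for 35S::asCCD7 and WT and 0.21 for Never ripe and WT. These lines share no library within a pair. The genes are not independent replicates, and close antenna copies share sequence.

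Whether a line responded to LTMH differently from WT was tested as the line by temperature interaction. The response of Never ripe differed from that of WT in 23 of the 24 genes, each in the direction of a smaller decrease or none, where 2.74% of all genes differed in that direction. The median difference of the log2 fold changes was 1.26, against 0.01 over all genes. It was largest for Cab-5 (3.80 ± 0.39, adjusted p = 4.22e-05) and Solyc06g069730 (3.40 ± 0.30, adjusted p = 1.12e-05), and PsbP (0.58 ± 0.09, adjusted p = 0.00132) alone stayed just below the fold threshold. The response of 35S::nahG differed in 6 of the 24, where 5.54% of all genes did, namely Cab-5 (0.99 ± 0.24, adjusted p = 0.0115), Solyc07g063600 (0.82 ± 0.15, adjusted p = 0.00309), CAB13 (0.81 ± 0.15, adjusted p = 0.00285), Solyc03g115900 (0.65 ± 0.09, adjusted p = 0.000658), Solyc07g047850 (0.62 ± 0.13, adjusted p = 0.0055) and Solyc05g056050 (0.59 ± 0.11, adjusted p = 0.00327). All 24 differences were above 0 with a median of 0.46, and 19 passed the adjusted p alone, where 9.90% of all genes did. Without WT replicate 4 in LTMH 3 of the 24 were called, and 1 with all 8 groups in 1 fit. The response of 35S::asCCD7 gave 0 calls, where 0.319% of all genes were called in either direction. All 24 differences were above 0 with a median of 0.77, 23 had an unadjusted p below 0.05, and DESeq2 called 9. Without replicate 3 of 35S::asCCD7 in LTMH 15 were called, and without replicate 1 the median was 0.51 with 0 calls.

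Within LTMH, each line was compared with WT. In 35S::nahG, 22 of the 24 were higher than in WT, where 4.59% of all genes were. The median log2 fold change was 0.94, against -0.0042 over all genes. Cab-5 was the most raised (2.75 ± 0.27, adjusted p = 0.000624), then Solyc06g069730 (2.19 ± 0.21, adjusted p = 0.000547), Solyc07g063600 (1.66 ± 0.12, adjusted p = 0.000152) and CAB13 (1.55 ± 0.12, adjusted p = 0.000207). RBCS-3B (1.29 ± 0.15, adjusted p = 0.00115), PSBS (0.79 ± 0.08, adjusted p = 0.000874) and PSBO (0.73 ± 0.08, adjusted p = 0.00123) rose too, and the smallest called difference was that of Solyc09g014520 (0.60 ± 0.07, adjusted p = 0.00158). RBCS-2A (0.35 ± 0.08, adjusted p = 0.0145) and PsbP (0.50 ± 0.07, adjusted p = 0.00207) passed the adjusted p and missed the fold threshold. The tapetal marker sums in LTMH were 62.7 to 118 FPKM in 35S::nahG and 70.8 to 192 FPKM in WT, ranges that overlap. AMS gave most of these sums, so they say little about the other markers. TDF1 and WBC27 in LTMH lay lower in 35S::nahG than in WT without overlap, as given above. TDF1 was near the floor in both lines and WBC27 in 35S::nahG. AMS, CYP703A2 and CYP704B1 overlapped between these groups. The part of the markers in the differences of the photosynthesis genes was not tested.

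In Never ripe in LTMH, 16 of the 24 were higher than in WT, where 2.44% of all genes were, with a median log2 fold change of 0.84, against 0.01 over all genes. Cab-5 (2.62 ± 0.31, adjusted p = 0.00709) and Solyc06g069730 (2.37 ± 0.20, adjusted p = 0.00292) rose the most, and CAP10B (0.64 ± 0.08, adjusted p = 0.009) and Solyc10g007690 (0.66 ± 0.08, adjusted p = 0.00864) the least among those called. PSBO (0.56 ± 0.11, adjusted p = 0.0305), psaD (0.58 ± 0.10, adjusted p = 0.0197) and PsbP (0.36 ± 0.08, adjusted p = 0.0457) were below the fold threshold. The count in Never ripe was 8 with the replicate number as a block, when 2 numbers were shared, and 11 to 18 when 1 library was left out. In 35S::asCCD7 in LTMH, 13 of the 24 were higher than in WT, where 3.66% of all genes were, with a median of 1.01, against 0.03 over all genes. Cab-5 (2.67 ± 0.44, adjusted p = 0.0133) and Solyc08g067320 (1.97 ± 0.39, adjusted p = 0.0244) were among them, while the abundant Solyc03g005760 (0.96 ± 0.28, adjusted p = 0.0703) and RBCS-2A (0.63 ± 0.25, adjusted p = 0.148) were not. This count moved with single libraries and with the test: it was 0 without any 1 of the 3 WT libraries in LTMH, 7, 23 and 3 without replicate 2, 3 and 4 of 35S::asCCD7, 15 without replicate 1, 23 by DESeq2 and 24 with all 8 groups in 1 fit. With 1 library left out, the median log2 fold change ran from 0.73, without replicate 1 of 35S::asCCD7, to 1.12, without its replicate 3. The fits without a WT library, with 0 calls, had medians within this range. The 3 comparisons share the WT libraries in LTMH, so they are not independent of each other.

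In LTMH, 35S::nahG was also compared with Never ripe and with 35S::asCCD7. Between 35S::nahG and Never ripe 0 of the 24 were called, where 0.823% of all genes were, and DESeq2 called 0 with 1 gene at an unadjusted p below 0.05. Their difference in log2 was 0.12 ± 0.20, adjusted p = 0.825 for Cab-5 and 0.19 ± 0.10, adjusted p = 0.463 for Solyc03g005760, and the widest was 0.48 ± 0.13, adjusted p = 0.197 for RBCS-3B. Between 35S::nahG and 35S::asCCD7 0 were called, where 1.07% of all genes were, by DESeq2 also 0, and 0 had an unadjusted p below 0.05. The widest difference was that of Solyc08g067320 (-0.75 ± 0.37, adjusted p = 0.37), and the median was -0.11, or 0.18 without replicate 1 of 35S::asCCD7. The standard errors, up to 0.42 for Solyc06g069730, leave room for differences that were not detectable here.

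In CT the lines stood on both sides of WT. In 35S::nahG 8 of the 24 were higher than in WT, where 7.85% of all genes were, and 21 passed the adjusted p alone, where 17.3% of all genes did. The 8 were Solyc06g069730 (1.87 ± 0.10, adjusted p = 2.27e-06), Cab-5 (1.77 ± 0.07, adjusted p = 7.76e-07), Solyc03g005770, Solyc07g063600, Solyc08g067320, RBCS-3B, CAB13 and Solyc12g011280, the last with 0.61 ± 0.07, adjusted p = 0.000219. RBCS-2A (0.08 ± 0.07, adjusted p = 0.411) and PsbP (0.11 ± 0.06, adjusted p = 0.198) differed least. The tapetal marker sum was 2545 to 3544 FPKM in 35S::nahG in CT and 297 to 1512 FPKM in WT in CT, without overlap, and its part in these differences was not tested. In Never ripe 5 of the 24 were lower than in WT in CT, where 4.39% of all genes were, and 23 passed the adjusted p alone, where 12.4% of all genes did. The 5 were Cab-5 (-1.17 ± 0.21, adjusted p = 0.00368), Solyc06g069730 (-1.01 ± 0.18, adjusted p = 0.00331), Solyc07g047850 (-0.72 ± 0.09, adjusted p = 0.000418), CAB13 (-0.71 ± 0.10, adjusted p = 0.000875) and Solyc07g063600 (-0.66 ± 0.11, adjusted p = 0.00204). The count was 8 or 9 without WT replicate 2 or 4 or Never ripe replicate 1. In 35S::asCCD7 Cab-5 (1.18 ± 0.16, adjusted p = 0.00296) and Solyc06g069730 (0.74 ± 0.17, adjusted p = 0.0346) were higher than in WT in CT, 2 of the 24, where 2.17% of all genes were. When any 1 of 7 of the 8 libraries was left out, 1 of the 2 was called. The median log2 differences from WT in CT were 0.39 in 35S::nahG, 0.22 in 35S::asCCD7 and -0.45 in Never ripe, against 0.01, -0.01 and 0.0027 over all genes.

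**Figure D4:**
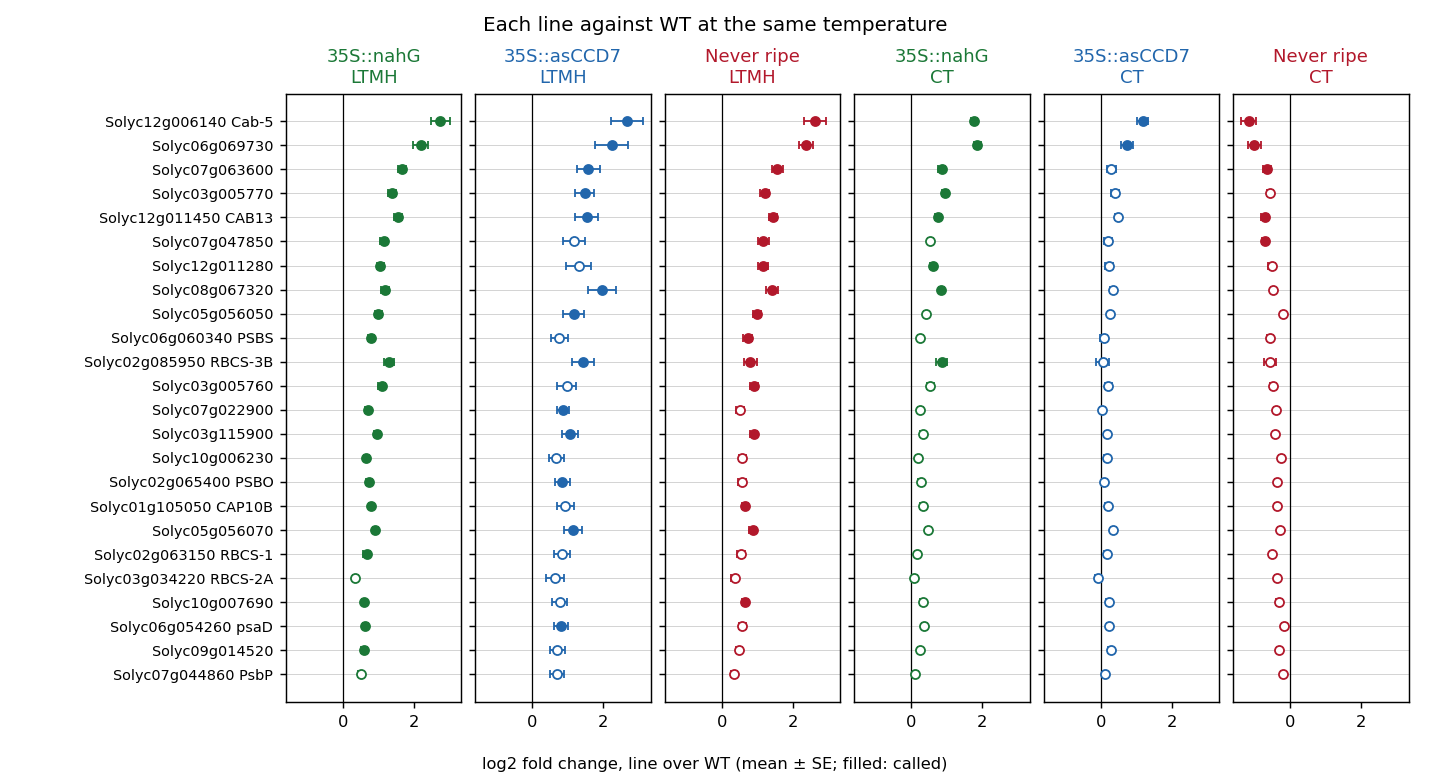
log2 fold change of 35S::nahG, 35S::asCCD7 and Never ripe over WT for each of the 24 genes, in LTMH (3 panels on the left) and in CT (3 on the right), with its standard error; filled points were called. In LTMH all values are above 0, and in CT those of Never ripe are below 0, down to -1.17 for Cab-5.

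Other genes of the pathway were taken from Gene Ontology lists of the study's supplement, with the 24 members left out. The study had chosen these lists from the 35S::nahG and WT libraries in LTMH, where their genes were higher in the transgenic line, so the choice already used low WT levels in LTMH. The comparison of LTMH with CT in WT or in 35S::nahG and every interaction with WT reuse those libraries, and the counts there are a description and not independent evidence. Over all genes, 13.0% were called lower and 14.5% higher in LTMH in 35S::nahG, 2.80% and 4.37% in 35S::asCCD7, 4.02% and 4.41% in Never ripe, and 8.43% and 8.77% in WT. Of 10 other genes of chlorophyll synthesis, the pathway that makes the pigment of the antenna, 4 were called lower in LTMH in 35S::nahG, 1 in 35S::asCCD7, 0 in Never ripe and 7 in WT, and 0 were called higher in any line. The response of Never ripe differed from that of WT in 6 of the 10, where 2.74% of all genes were called in that direction, and those of 35S::nahG and 35S::asCCD7 in 0. The median log2 fold changes of the 10 for LTMH over CT were -0.46 in 35S::nahG, -0.44 in 35S::asCCD7, 0.07 in Never ripe and -0.73 in WT. Of 17 other genes of photosynthetic electron transport, 1 was called lower and 1 higher in LTMH in 35S::nahG, 1 and 1 in 35S::asCCD7, 0 and 1 in Never ripe, and 5 and 1 in WT. Outside WT each of these counts was 0 or 1, which is no result about the list for LTMH against CT in those lines. The response of Never ripe differed from that of WT in 5 of the 17, where 2.74% of all genes were called in that direction. That of 35S::nahG differed in 1, where 5.54% of all genes did, and that of 35S::asCCD7 in 0. Of 6 other light harvesting genes 2 were called lower in LTMH in 35S::nahG, 0 in 35S::asCCD7 and 3 in WT, and in Never ripe 1 was called higher. The response differed from that of WT in 3 of the 6 in Never ripe, 1 in 35S::nahG and 0 in 35S::asCCD7. Among the 6, Solyc02g081550 and Solyc04g082250 also stand in the electron transport list and were counted in both. Of 4 other carbon fixation genes 1 was called lower and 2 higher in 35S::nahG, 1 and 1 in WT and 0 in the other lines, too few genes to set against the shares over all genes. HY5 (Solyc08g061130), a bZIP transcription factor that in Arabidopsis promotes light-responsive genes, had log2 fold changes of LTMH over CT of 0.30 ± 0.17 in 35S::nahG (adjusted p = 0.173), -0.33 ± 0.22 in 35S::asCCD7 (adjusted p = 0.327), -0.34 ± 0.17 in Never ripe (adjusted p = 0.199) and -0.47 ± 0.13 in WT (adjusted p = 0.0194). It was called in none of these. Its response differed from that of WT in 35S::nahG (difference 0.77 ± 0.22, adjusted p = 0.031), where it lay on the other side of 0. HY5 stands in other lists of the same table, chosen on the same libraries.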

How the data were processed

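Poly(A) RNA of 29 anther libraries was sequenced as paired reads from a kit that does not mark strand. Per the labels and the study's methods, the authors aligned reads to the tomato ITAG reference with HISAT2 2.0.5 and deposited counts per gene made with featureCounts 1.5.0-p3 at default settings. The authors also deposited FPKM, which were found to be scaled by median-ratio size factors of the same counts, so they compare libraries as well as genes. Here FPKM were used for levels and counts for tests, in R 4.3.3 with edgeR 4.0.16 (TMM, filterByExpr with a minimum count of 10, quasi-likelihood F-test on the libraries compared) and DESeq2 1.42.0 as an alternative. The fits were tested on simulated counts first. Libraries of a group differed by more than counting noise in all 39 pairs. Replicate numbers were taken to pair samples where there were at least 3 pairs, each correlated above 0.1. This held in 1 comparison, 35S::asCCD7 against WT in CT (4 pairs, r from 0.12 to 0.44), where the block left the 2 calls unchanged. There, 1 of the 4 pairs correlated best with its own number in both directions, so a pairing by number is uncertain. Never ripe and WT in LTMH shared 2 numbers (r of 0.16 and 0.51), too few for this rule. The study's methods call them biological replicates without naming the plants, and p-values measure the spread between these libraries.

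The members and the gene lists were chosen with earlier results of these data known. The planned lists by gene description could not be made, because the tables hold no descriptions, and Gene Ontology lists of the study replaced them. Values in every library were given for the most abundant members, for all members that are no antenna genes, for the called genes with the highest and the lowest fold change in LTMH against CT of each line and in 35S::nahG against WT in LTMH, and for members not called where most were. Outside this rule, the values of 6 more (Solyc03g005770, Solyc05g056050, Solyc06g069730, Solyc07g063600, Solyc08g067320 and CAB13) were added after they had been seen. Other settings tried were DESeq2, no filter, median-ratio scaling, all 8 groups in 1 fit, the replicate block, no fold threshold and leaving out each library.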

Additional observations from a re-analysis of the deposited data

Results flagged for a closer look

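A sample stood apart in 4 of 125 groups of 4 libraries examined, by Dixon's test of the gap to the nearest value; chance gives about 1 in 20, or 6.25. PsbP (Solyc07g044860) was low in WT replicate 4 in CT, at 522 FPKM, where the other 3 had 555, 552 and 555 FPKM. RBCS-1 (Solyc02g063150) was high in Never ripe replicate 1 in CT, at 755 FPKM against 719.5, 717 and 715 FPKM. Solyc10g007690 was low in 35S::asCCD7 replicate 4 in CT, at 273 FPKM against 312, 319.5 and 318 FPKM. Solyc09g014520 was high in 35S::asCCD7 replicate 1 in LTMH, at 1172 FPKM against 707, 649 and 724 FPKM. This last library had the highest level of its group in 24 of the 24 genes.

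The response to LTMH differed from that of WT in 23 of the 24 genes in Never ripe and in 6 in 35S::nahG, by the line by temperature interaction. The cause of either was not tested.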

How the results depend on the processing

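Without the fold threshold, the counts of the 24 genes were 24 for LTMH against CT in 35S::nahG, 4 in Never ripe, 21 for 35S::nahG against WT in CT, 23 for Never ripe against WT in CT, 6 for 35S::asCCD7 against WT in CT and 19 for the 35S::nahG interaction, which follows from the looser rule. With DESeq2 the count for 35S::asCCD7 against WT in LTMH was 23 and that for the 35S::asCCD7 interaction 9. With all 8 groups in 1 fit these were 24 and 15, the count for 35S::asCCD7 against WT in CT was 1, and that for the 35S::nahG interaction 1. The replicate block gave 8 for Never ripe against WT in LTMH, where 2 numbers were shared, and it moved no other count by over 1.5 times. Leaving out 1 library gave 12 to 13 for LTMH against CT in 35S::nahG, 0 in Never ripe, 1 to 11 in 35S::asCCD7 and 21 to 24 in WT. It gave 18 to 22, 11 to 18 and 0 to 23 for 35S::nahG, Never ripe and 35S::asCCD7 against WT in LTMH, 7 to 8, 5 to 9 and 1 to 2 in CT, and 3 to 9, 23 to 24 and 0 to 15 for the interactions. The comparisons of 35S::nahG with Never ripe and with 35S::asCCD7 in LTMH both stayed at 0 under every setting. No gene that was called changed direction under any setting. Median-ratio scaling and no filter left every count within 1.5 times. By CPM without TMM the 5 most abundant members were the same 5 genes. The cause of these changes was not tested. The few replicates, 3 in LTMH in most lines, limit the size of difference that can be seen, and close antenna copies may share reads.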
